A study of Drosophila melanogaster with 12 samples.

Results

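The genes described here differed between a p53 mutant strain and a wild-type strain of the fly Drosophila melanogaster in the same direction in 2 tissues, adult heads and embryos, without any radiation. They were chosen from the values of the 4 mock-treated RNA libraries. A member had to reach 1 FPKM (a fragment count scaled by transcript length and library size) in at least 1 group of each tissue. Its difference in log2(FPKM + 1), mutant minus wild type, had to be 1 or more in both tissues or −1 or less in both, which is 2-fold on that scale. Of 9241 genes that reached the level in both tissues, 121 passed, and 111 were kept after p53, roX2, XRCC1 and the cytochrome P450, glutathione transferase and odorant-binding protein genes were left out. The members numbered 69 that were higher and 42 that were lower in the mutant. Because these values chose the members, the mock strain differences below are a description. The genes called over the whole table were 0.812% of those tested for higher in both tissues and 0.498% for lower in both, and nothing is read from those shares. A further 0.206% passed in opposite directions in the 2 tissues. In single tissues, 3.15% of all genes were higher and 2.59% lower in mock mutant heads, and 3.69% higher and 1.50% lower in mock mutant embryos.

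RNA came from the p53 mutant strain p535A-1-4 and from the strain yw, called wild type in the labels. Each strain was either irradiated with 40 Gy or mock treated, and heads and embryos were taken, with 1 library for each of the 8 combinations. Adults were raised for 1 to 2 weeks and age matched between genotypes, and heads were sieved from frozen flies, without a sex given. Embryos were treated at 3 to 4 h of age and sampled after 1.5 h, at 4.5 to 5.5 h, and the labels give adults 3 h of recovery after irradiation. p53-bound chromatin was measured in unirradiated heads and embryos of both strains. The labels do not say how often the mutant strain was crossed to yw, so the p53 mutation and any other difference between these strains cannot be told apart.

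p53 is a transcription factor that is activated by DNA damage and switches on genes of cell death and repair. A strain that carries a mutation in it also carries the rest of its own genome. Between fly strains, gene expression is known to differ through variants close to the gene itself, through gain or loss of gene copies and through transposon insertions.

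The p53 transcript followed the labels. It had 0.549 and 0.532 FPKM in irradiated and mock mutant heads, against 13.3 and 11.7 FPKM in irradiated and mock wild-type heads. Embryo levels were 0.340 and 0.700 FPKM in irradiated and mock mutants, against 54.5 and 25.9 FPKM in irradiated and mock wild type. The eye pigment transporter gene w had 7.10 and 7.86 FPKM in irradiated and mock mutant heads, against 1.02 and 1.02 FPKM in wild-type heads. Neuron markers summed to between 514 and 544 FPKM in the 4 head libraries and photoreceptor markers to between 8525 and 10328 FPKM, while patterning markers summed to between 154 and 196 FPKM in the 4 embryo libraries. Male reproductive tract markers summed to 0.666 and 40.0 FPKM in irradiated and mock mutant heads. In irradiated and mock wild-type heads they summed to 0.128 and 0.0800 FPKM. Of these 5 markers, 3 were higher by 2-fold or more in mock mutant heads, and their part in the results was not tested. Midgut markers varied too, with 5.31 and 3.48 FPKM in irradiated and mock mutant heads, against 124 and 1.96 FPKM in irradiated and mock wild-type heads. In embryos they summed to 90.3 and 46.5 FPKM in irradiated and mock mutants, against 37.4 and 4.79 FPKM in irradiated and mock wild type, with 3 of 5 markers past 2-fold in mock embryos, and their part in the results was not tested. Depth read from the steps of FPKM was 10.4 to 13.7 M fragments in heads and 19.1 to 22.7 M in embryos. In whole heads and whole embryos, fewer cells of a type and less RNA per cell cannot be told apart.

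The irradiated libraries set no threshold in the choice of members, so they give the same strain comparison in other libraries of the same strains. In them, 81 of the 111 members (73.0%) differed by 2-fold or more in the same direction in both tissues. These were 56 of the 69 members chosen as higher and 25 of the 42 chosen as lower, beside 0.909% of all tested genes higher and 0.530% lower in both tissues, and 0.595% that passed in opposite directions. Outside the gene classes left out, 124 genes passed in the irradiated libraries of both tissues, so the 81 members made up 65.3% of them. In irradiated heads 60 of the 69 higher members passed upward and 37 of the 42 lower members downward, against 2.68% and 3.40% of all genes. In irradiated embryos 61 higher and 28 lower members passed, against 4.89% and 2.13% of all genes. The sign was kept by 108 members in heads and 106 in embryos. Each group has 1 library, and these shares are given without a test.

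**Figure D1:**
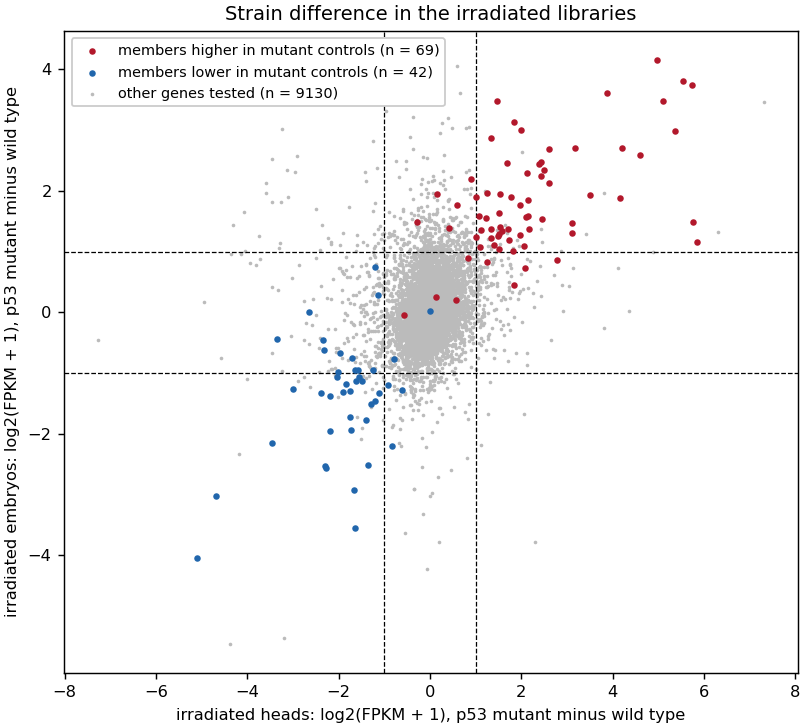
Strain difference in log2(FPKM + 1), p53 mutant minus wild type, in irradiated heads (horizontal axis) and irradiated embryos (vertical axis), 1 point per gene, with dashed lines at 2-fold. Of the 111 members, 81 lie beyond both lines in the corner of their direction in the mock libraries, and most other genes lie near 0.

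The size of the differences was also close in the irradiated libraries. Among higher members the median difference was 1.83 in irradiated heads and 1.58 in irradiated embryos, against medians of −0.01 and 0.01 over all tested genes. Among lower members the medians were −1.73 in irradiated heads and −1.28 in irradiated embryos. In the mock libraries used for the choice, the medians were 1.78 in heads and 1.55 in embryos for higher members, and −1.73 in heads and −1.33 in embryos for lower members. Over both treatments together, the 2 mutant libraries did not overlap the 2 wild-type libraries in either tissue for 65 of the 69 higher members and 38 of the 42 lower members. Over all tested genes, 15.1% lay above in both tissues and 14.5% below. In heads alone 32.9% of all genes lay above and 30.8% below, and in embryos alone 33.9% above and 32.6% below, and the mock libraries in this count are those that chose the members.

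The most shifted higher members were close to absent in wild type. mthl8, a gene of the Methuselah-like receptor family on 3L, had 30.4 and 31.2 FPKM in irradiated and mock mutant heads, against 0 and 0.266 FPKM in irradiated and mock wild-type heads. Its levels in embryos were 37.3 and 32.6 FPKM in irradiated and mock mutants, against 1.16 and 0.0400 FPKM in irradiated and mock wild type. Its strain difference was 4.97 in irradiated heads and 4.15 in irradiated embryos on the log2 scale. All 4 mutant libraries were far above all 4 wild-type ones, and the level in the mutant was alike in heads and embryos. mthl8 lies at the tip of the arm, at 3L:22428-26308 on the plus strand of dm6, the genome build of the tables.

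p24-2 encodes a member of the p24 family of cargo receptors in the early secretory pathway. It had 45.4 and 39.5 FPKM in irradiated and mock mutant heads, against 0 and 0.483 FPKM in irradiated and mock wild-type heads. In embryos it had 20.9 and 18.5 FPKM in irradiated and mock mutants, against 0.570 and 0 FPKM in irradiated and mock wild type. The p24 genes eca and p24-1 did not share the pattern. The first differed by 0.45 in irradiated heads and 0.36 in irradiated embryos, and p24-1 by 0.19 and −0.02. Summed over p24-2, eca and p24-1, the difference was 0.64 in irradiated heads and 0.33 in irradiated embryos.

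Tektin-C is named for tektins, the filament proteins of cilia and sperm tails. It had 72.8 and 69.0 FPKM in irradiated and mock mutant heads, against 0.379 and 0.880 FPKM in irradiated and mock wild-type heads. Embryo levels were 41.3 and 37.3 FPKM in irradiated and mock mutants, against 2.17 and 1.30 FPKM in irradiated and mock wild type. Markers of the male reproductive tract summed to 0.666 and 40.0 FPKM in irradiated and mock mutant heads, and their part in the level of Tektin-C was not tested. Of the other 6 tested genes in the male reproductive list, none was a member.

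CG14419 and CG3588 are X-linked members of this group. CG14419 was between 12.8 and 23.1 FPKM in the 4 mutant libraries, while in wild type it was listed at 0 in 3 libraries and at 1.34 FPKM in irradiated embryos. CG3588 was between 13.5 and 33.1 FPKM in the 4 mutant libraries and between 0 and 0.760 FPKM in the 4 wild-type libraries. Neither gene overlapped between the strains in either tissue.

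CG7299 was high in the mutant but also present in wild type. It had 85.6 and 65.9 FPKM in irradiated and mock mutant heads, against 4.90 and 5.70 FPKM in irradiated and mock wild-type heads. Its level in embryos was 33.7 and 20.3 FPKM in irradiated and mock mutants, against 1.85 and 1.49 FPKM in irradiated and mock wild type. The non-coding RNA CR42767 was between 13.9 and 24.3 FPKM in the 4 mutant libraries and between 0.299 and 1.82 FPKM in the 4 wild-type libraries. pre-mod(mdg4)-AE is an exon unit that is joined by trans-splicing to the mod(mdg4) transcript, which encodes chromatin proteins. It had 39.3 and 46.7 FPKM in irradiated and mock mutant heads, against 1.27 and 2.21 FPKM in irradiated and mock wild-type heads.

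Ada1-1 completes the 10 most shifted higher members at 5 FPKM or more in both tissues. It encodes a subunit of the SAGA histone acetylation complex and has a relative with an equally long coding sequence, Ada1-2. Ada1-1 was between 6.77 and 8.03 FPKM in the 4 mutant libraries and between 0 and 0.280 FPKM in the 4 wild-type libraries. Ada1-2 differed by −0.62 in irradiated heads and −0.08 in irradiated embryos. The level summed over both genes differed by 0.26 in irradiated heads and 0.35 in irradiated embryos, so the sum was under 2-fold while Ada1-1 alone was 3.17 and 2.70.

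**Figure D2:**
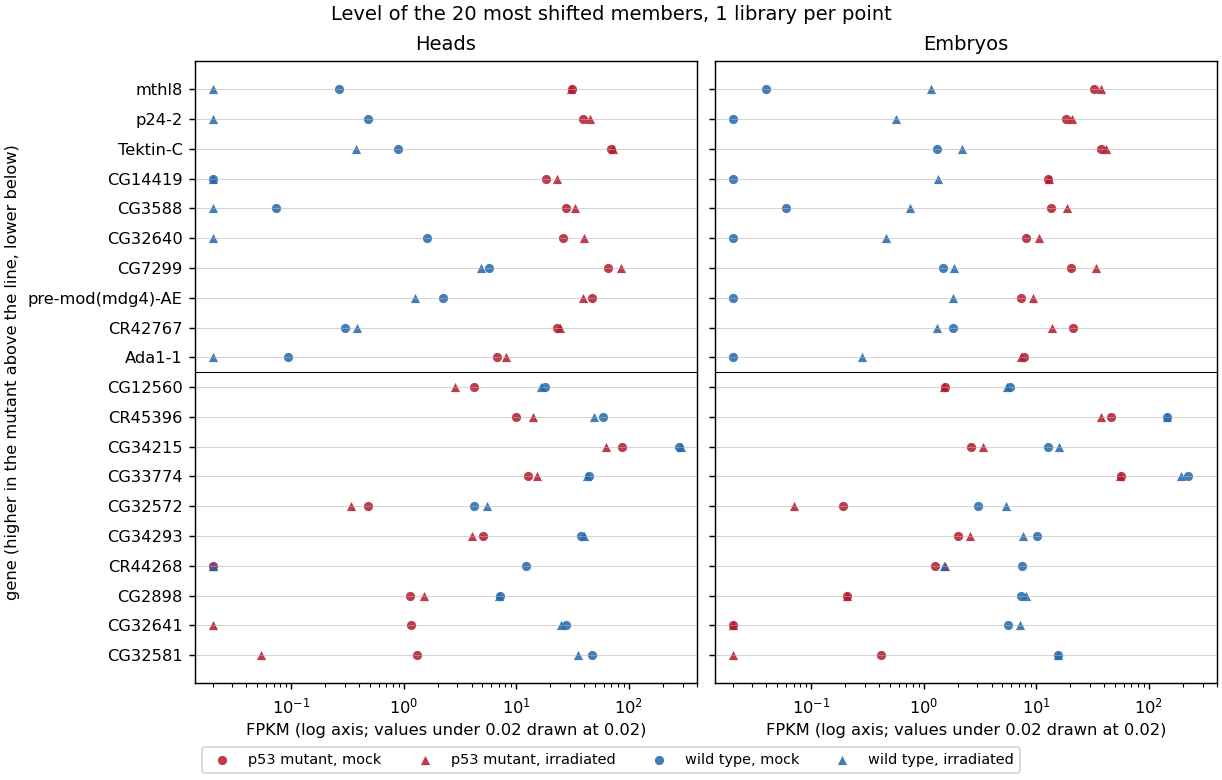
Level of the 20 most shifted members at 5 FPKM or more in both tissues, in heads (left) and embryos (right), on a log axis in FPKM with values under 0.02 drawn at 0.02. Red is the p53 mutant and blue wild type, circles are mock and triangles irradiated libraries, and the strains separate in every row except CR44268, whose irradiated wild-type points join the mutant ones.

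Among the lower members, CG32581 (current symbol sordd2) was the most shifted. It had 0.0540 and 1.30 FPKM in irradiated and mock mutant heads, against 35.3 and 47.2 FPKM in irradiated and mock wild-type heads. Its levels in embryos were 0 and 0.420 FPKM in irradiated and mock mutants, against 15.6 and 15.5 FPKM in irradiated and mock wild type. Its strain difference was −5.11 in irradiated heads and −4.05 in irradiated embryos. CG2898 was between 0.210 and 1.52 FPKM in the 4 mutant libraries and between 6.95 and 8.17 FPKM in the 4 wild-type libraries. CG32572 was between 0.0700 and 0.481 FPKM in the 4 mutant libraries and between 3.01 and 5.53 FPKM in the 4 wild-type libraries. All 3 genes lie on the X chromosome.

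Of the other 7 of the 10 most shifted lower members, 5 were at 1.50 FPKM or more in each mutant library, while CG32641 and CR44268 were listed at 0 in 3 and 2 of the 4 mutant libraries. CG34215 had 62.8 and 86.9 FPKM in irradiated and mock mutant heads, against 290 and 279 FPKM in irradiated and mock wild-type heads. CG33774 had 55.8 and 56.8 FPKM in irradiated and mock mutant embryos, against 194 and 225 FPKM in irradiated and mock wild-type embryos. CG34293 was between 4.03 and 5.04 FPKM in mutant heads and between 37.3 and 39.6 FPKM in wild-type heads. Its embryo levels were 2.58 and 2.01 FPKM in irradiated and mock mutants, against 7.65 and 10.2 FPKM in irradiated and mock wild type. CG12560 differed by −2.20 in irradiated heads and −1.37 in irradiated embryos. The antisense RNA CR45396 had 14.0 and 9.85 FPKM in irradiated and mock mutant heads, against 48.9 and 59.1 FPKM in irradiated and mock wild-type heads.

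A few members were at 0.1 FPKM or less in every library of 1 strain. The non-coding RNA CR45625 was listed at 0 in the 4 wild-type libraries and was between 2.56 and 7.76 FPKM in the 4 mutant libraries. The non-coding RNA CR45380 was listed at 0 in the 4 mutant libraries, and had 4.07 and 6.42 FPKM in irradiated and mock wild-type heads. In wild-type embryos CR45380 was low as well, at 0.380 FPKM when irradiated and 1.20 FPKM when mock treated. Gr94a, which lies within the span of p53, was also at or near 0 in the mutant.

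Members with a known role were spread over many functions. In the mitochondrion, ND-13B (CG6463), a subunit of respiratory complex I, had 95.2 and 73.4 FPKM in irradiated and mock mutant heads, against 14.9 and 15.5 FPKM in irradiated and mock wild-type heads. ND-13A (CG8680), another subunit of that complex, had 102 and 103 FPKM in irradiated and mock mutant heads, against 30.3 and 38.8 FPKM in irradiated and mock wild-type heads. RFeSP, the Rieske iron-sulphur protein of complex III, went the other way, with 116 and 99.6 FPKM in irradiated and mock mutant heads, against 275 and 261 FPKM in irradiated and mock wild-type heads. The remaining 31 complex I genes with ND symbols, a set chosen after the values were seen, differed by between −0.28 and 0.45 in mock heads and by between −0.25 and 0.87 in mock embryos. None of them passed 2-fold in either tissue. Over all tested genes, 3.15% were higher and 2.59% lower in mock heads, and 3.69% higher and 1.50% lower in mock embryos. At those shares few of 31 genes would pass, so nothing is read from the count.

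Among translation genes, mRpL33 of the mitochondrial ribosome had 135 and 124 FPKM in irradiated and mock mutant heads, against 14.7 and 16.8 FPKM in irradiated and mock wild-type heads. In embryos it had 163 and 138 FPKM in irradiated and mock mutants, against 57.9 and 46.5 FPKM in irradiated and mock wild type. Of the other 71 mitochondrial ribosomal protein genes, 1 passed 2-fold in mock heads and 2 in mock embryos. The shares over all tested genes were 3.15% higher and 2.59% lower in mock heads, and 3.69% and 1.50% in mock embryos. RpL23A, a protein of the large cytosolic ribosomal subunit, had 1023 and 646 FPKM in irradiated and mock mutant heads, against 246 and 248 FPKM in irradiated and mock wild-type heads. The other 85 cytosolic ribosomal protein genes had a median difference of 0.04 in mock heads and −0.10 in mock embryos. They ranged from −1.35 to 0.78 in mock heads and from −0.64 to 1.30 in mock embryos, with 1 past 2-fold in each tissue. snRNP-U1-C, a protein of the U1 splicing particle, differed by 1.49 in irradiated heads and 1.26 in irradiated embryos.

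Several members encode metabolic enzymes. Oat, ornithine aminotransferase, had 48.0 and 46.4 FPKM in irradiated and mock mutant heads, against 7.67 and 11.4 FPKM in irradiated and mock wild-type heads. Prat2, which catalyses the first committed step of purine synthesis, had 181 and 220 FPKM in irradiated and mock mutant heads, against 60.0 and 60.2 FPKM in irradiated and mock wild-type heads. Jheh3, a juvenile hormone epoxide hydrolase, was lower, at 7.44 and 8.67 FPKM in irradiated and mock mutant heads, against 33.8 and 31.6 FPKM in irradiated and mock wild-type heads. Its relatives Jheh1 and Jheh2 differed by 0.02 and −0.18 in irradiated heads. CG17322 (Ugt36E1), a UDP-glycosyltransferase, differed by 1.68 in irradiated heads and 2.45 in irradiated embryos.

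Hormones, receptors and proteins of secretion and membrane traffic were also among the members. CG8317 (Lst), the hormone limostatin that limits insulin release, had 176 and 181 FPKM in irradiated and mock mutant heads, against 39.2 and 36.1 FPKM in irradiated and mock wild-type heads. NimC1, a receptor with which blood cells take up bacteria, had 31.1 and 31.7 FPKM in irradiated and mock mutant heads, against 3.65 and 4.25 FPKM in irradiated and mock wild-type heads. The summed hemocyte markers, of which NimC1 is 1 of 3, were 89.7 and 94.3 FPKM in irradiated and mock mutant heads, against 80.5 and 72.0 FPKM in irradiated and mock wild-type heads, and NimC1 was the only 1 of them past 2-fold. cer, an inhibitor of cysteine proteases, had 105 and 116 FPKM in irradiated and mock mutant embryos, against 12.3 and 13.7 FPKM in irradiated and mock wild-type embryos. fipi (CG15630), known for its part in courtship song, was lower, with 15.4 and 14.8 FPKM in irradiated and mock mutant heads, against 60.3 and 66.4 FPKM in irradiated and mock wild-type heads. Vps29, a subunit of the retromer that recycles membrane proteins, differed by 1.97 in irradiated heads and 1.27 in irradiated embryos.

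Genes of the germ line and the egg were among the higher members. dhd, a thioredoxin made for the egg, had 32.8 and 59.1 FPKM in irradiated and mock mutant embryos, against 10.6 and 7.72 FPKM in irradiated and mock wild-type embryos. mtrm, an inhibitor of Polo kinase in the oocyte, had 8.46 and 8.10 FPKM in irradiated and mock mutant embryos, against 1.55 and 3.13 FPKM in irradiated and mock wild-type embryos. In embryos the 5 maternal markers summed to 191 and 151 FPKM in irradiated and mock mutants, against 101 and 70.4 FPKM in irradiated and mock wild type, and their part in these 2 results was not tested. In heads the same markers summed to between 17.1 and 21.2 FPKM in the 4 libraries. eIF4E-3, a cap-binding protein used in the testis, differed by 1.46 in irradiated heads and 3.47 in irradiated embryos. Sdic2, of the sperm dynein intermediate chain cluster on the X, had 10.8 and 10.1 FPKM in irradiated and mock mutant heads, against 0.0380 and 0.179 FPKM in irradiated and mock wild-type heads. The cluster's copies are near-identical, so the split between Sdic2 and the other copies is uncertain, and the level summed over 4 copies differed by 3.47 in irradiated heads and 1.78 in irradiated embryos.

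Members known from cell death and stress were few. Strica (dream in the tables), a caspase, had 11.7 and 11.6 FPKM in irradiated and mock mutant heads, against 3.45 and 3.34 FPKM in irradiated and mock wild-type heads. Embryo levels were 6.94 and 5.36 FPKM in irradiated and mock mutants, against 2.85 and 1.98 FPKM in irradiated and mock wild type. Hsp26, a small heat shock protein, was the only member of 11 tested heat shock genes, and differed by 1.12 in irradiated heads and 1.36 in irradiated embryos. CG3814 (Lfg), a lifeguard family protein, and the antisense RNA CR43468 overlap on opposite strands at 2R, and both were higher. Lfg differed by 1.10 in irradiated heads and 1.07 in irradiated embryos, and CR43468 by 1.82 and 1.01. Libraries were stranded per the labels, but whether counting used the strand is not given in the sources used here, so the reads of these genes may be shared.

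Of the gene families listed for the strain comparison, 5 had 1 member each. They were heat shock genes (1 of 11), UDP-glycosyltransferases (1 of 16), chemoreceptors (1 of 14), cuticle proteins (1 of 31) and male reproductive genes (1 of 7). There was no member among 11 immune effectors, 12 digestive proteases, 4 lysozymes, 6 eggshell genes, 7 histones or 6 pigment genes. Over all tested genes, 111 of 9241 were members. At that share lists this short would hold few members or none, so nothing is read from these counts. In the families without a member, 5 of the immune effectors passed 2-fold in mock heads and 1 in mock embryos. Of the digestive proteases, 6 passed in mock embryos and 0 in mock heads. Over all tested genes, 3.15% were higher and 2.59% lower in mock heads, and 3.69% higher and 1.50% lower in mock embryos. Counts of 0 or 1 are near those shares, and nothing is read from them.

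The cuticle protein Lcp65Ag2 has close copies. It had 0.236 and 0.793 FPKM in irradiated and mock mutant heads, against 11.7 and 11.2 FPKM in irradiated and mock wild-type heads. Its levels in embryos were 54.0 and 55.1 FPKM in irradiated and mock mutants, against 73.4 and 145 FPKM in irradiated and mock wild type. The embryo difference was −0.44 after irradiation and −1.38 in mock libraries. Of its copies, Lcp65Ag1 differed by −0.09 in irradiated and −1.17 in mock embryos, and Lcp65Ag3 by 1.44 in irradiated and 0.89 in mock embryos. scpr-A is a lower member on 3R with copies too, and differed by −1.85 in irradiated heads and −1.19 in irradiated embryos, while scpr-C differed by −0.06 and 0.85.

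2 pairs of members were mirror images of each other. CG32640 and CG32641 lie 6473 bp apart on the plus strand of the X, at X:13178005-13178523 and X:13184478-13184996, and their models have the same length, 466 bp of transcript with 396 bp coding. CG32640 had 39.9 and 25.9 FPKM in irradiated and mock mutant heads, against 0 and 1.61 FPKM in irradiated and mock wild-type heads. CG32641 had 0 and 1.15 FPKM in irradiated and mock mutant heads, against 24.9 and 27.9 FPKM in irradiated and mock wild-type heads. The same held in embryos, where CG32640 had 10.6 and 8.17 FPKM in irradiated and mock mutants, against 0.460 and 0 FPKM in irradiated and mock wild type. CG32641 was listed at 0 in both mutant embryo libraries, against 7.19 and 5.66 FPKM in irradiated and mock wild-type embryos. Summed over the pair, the strain difference was 0.66 in irradiated and −0.12 in mock heads, and 0.43 in irradiated and 0.46 in mock embryos, all under 2-fold.

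CG2217 and CG42740 share 1 annotated span, 3R:30418767-30422971 on the minus strand. CG2217 had 62.7 and 62.9 FPKM in irradiated and mock mutant heads, against 14.0 and 12.8 FPKM in irradiated and mock wild-type heads. CG42740 had 7.90 and 9.90 FPKM in irradiated and mock mutant heads, against 43.3 and 40.6 FPKM in irradiated and mock wild-type heads. Summed over the pair, the difference was 0.30 in irradiated and 0.44 in mock heads. In embryos both genes were at 1.68 FPKM or less, and the sum differed by 0.31 in irradiated and 0.21 in mock libraries. For overlapping genes and close copies, how the authors' counting split the reads sets each gene's value, so the members of these pairs are uncertain one by one.

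**Figure D3:**
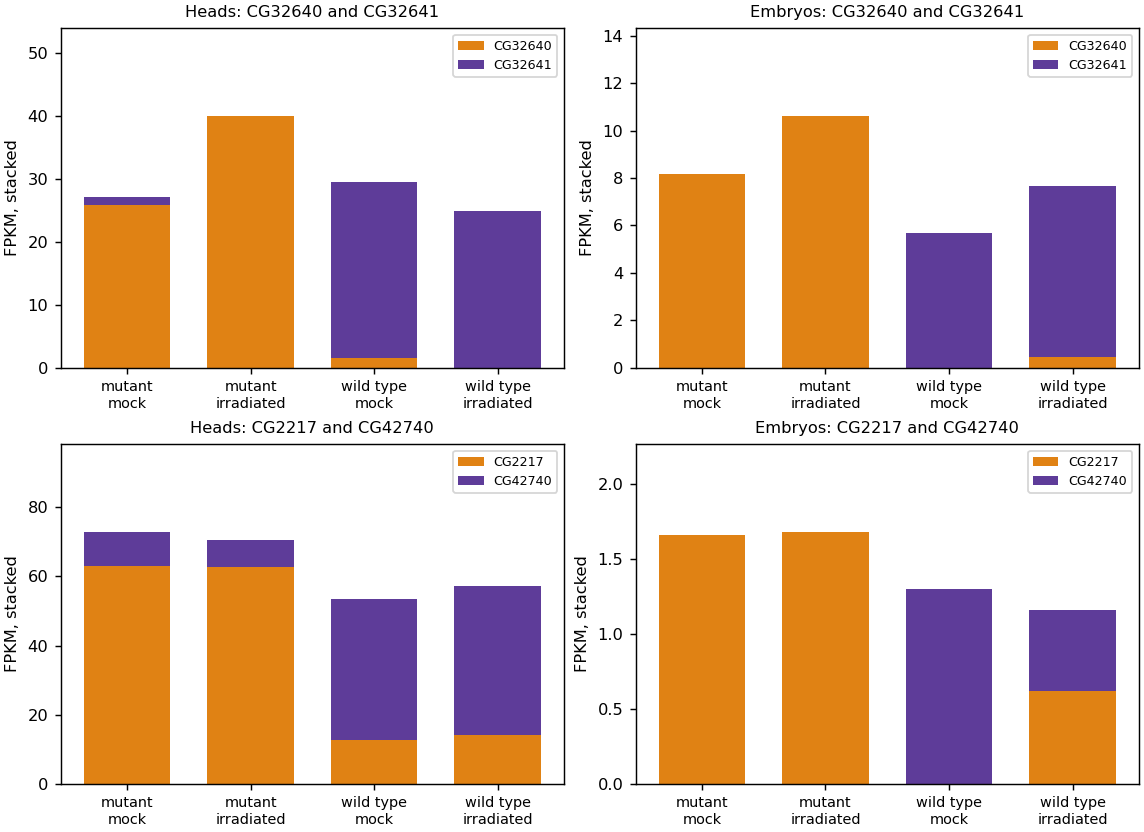
FPKM of CG32640 and CG32641 (top) and of CG2217 and CG42740 (bottom), stacked, in the 4 libraries of heads (left) and of embryos (right). The strains differ in which gene holds most of the signal, except for the lower pair in irradiated embryos, where CG2217 is the larger in wild type too at 0.620 against 0.540 FPKM, while the height of the stack, such as 39.9 FPKM in irradiated mutant heads and 24.9 FPKM in irradiated wild-type heads for the upper pair, differs by less than 2-fold.

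Non-coding genes made up 18 of the 111 members, 11 higher and 7 lower. The hairpin RNA genes CR32207 and pncr009:3L, from a class that gives rise to small interfering RNAs in flies, lie 9.72 kb apart on 3L and were both lower. CR32207 had 20.9 and 16.0 FPKM in irradiated and mock mutant embryos, against 42.5 and 39.5 FPKM in irradiated and mock wild-type embryos. pncr009:3L had 2.48 and 2.31 FPKM in irradiated and mock mutant embryos, against 15.0 and 22.1 FPKM in irradiated and mock wild-type embryos. The related gene CR32205, which was too low in heads to be tested, differed by −1.59 in irradiated embryos. CR45600, an antisense RNA on 3R, had 0.675 and 0.769 FPKM in irradiated and mock mutant heads, against 17.6 and 15.3 FPKM in irradiated and mock wild-type heads.

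As a set, the members had shorter and simpler gene models than the rest of the tested genes. The longest transcript had a median of 1071 bp in members and 2029 bp in the other 9110 genes placed on the annotation. It was under 1000 bp in 45.0% of members and 16.5% of the rest. Non-coding RNAs were 16.2% of members and 3.26% of the rest, genes without an intron 17.1% and 9.48%, and genes with 1 annotated transcript 51.4% and 38.9%. A transposable element of the reference genome lay in or within 2 kb of 21.6% of members and 16.3% of the rest. Overlap with a gene on the opposite strand was alike, in 45.9% of members and 44.7% of the rest. Members reached a median highest level of 28.2 FPKM in heads, against 28.8 FPKM for the rest, and of 12.7 FPKM in embryos, against 28.0 FPKM for the rest. A low count on a short gene varies more by counting alone, and the part of that in the set's make-up was not tested.

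**Figure D4:**
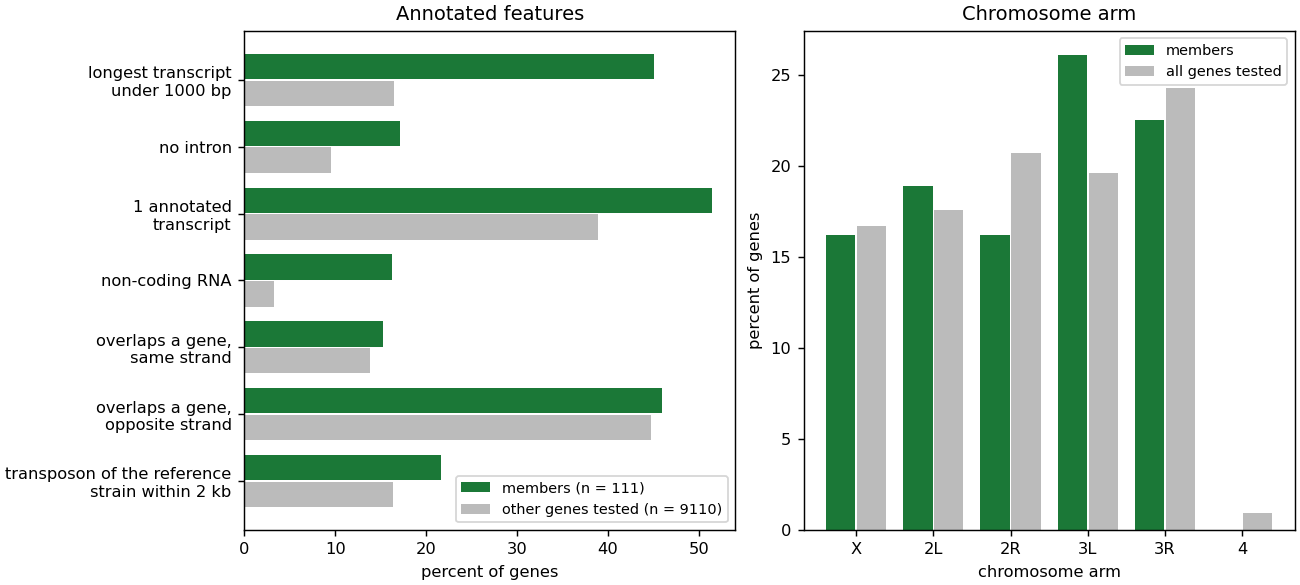
Left, the percent of the 111 members (green) and of the other 9110 tested genes (grey) that have each annotated feature. Right, the percent of members (green) and of all tested genes (grey) on each chromosome arm, with short transcripts at 45.0% against 16.5% as the widest gap on the left and 3L at 26.1% against 19.6% as the widest on the right.

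Members were found on every large chromosome arm. Arm 3L held 29 members, 1.60% of its tested genes, and arm 2L held 21, or 1.29%. The X held 18 members (1.17%), 3R held 25 (1.11%) and 2R held 18 (0.939%), and none of the 87 tested genes of chromosome 4 was a member. Higher members outnumbered lower ones on each arm, from 20 against 9 on 3L to 10 against 8 on the X. Another member's start lay within 20 kb for 24 members, in 12 pairs. The same count was not made for other genes, so nothing is read from it about clustering. The pairs include the overlapping genes CG2217 with CG42740 and Lfg with CR43468, and the look-alike genes CG32640 and CG32641. In 6 of the pairs both members were shifted the same way, and in the other 6 the directions were mixed.

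Other neighbouring members were unrelated by name. CG34263 and miple (miple1, a secreted growth factor of the midkine and pleiotrophin family) start 1.39 kb apart on 3L, and both were higher. By contrast with CG34263, miple was abundant. It had 319 and 312 FPKM in irradiated and mock mutant heads, against 135 and 146 FPKM in irradiated and mock wild-type heads. CG11170 and Swim, a secreted protein that binds Wingless, start 19.8 kb apart on 2R and were both higher, by 1.98 and 1.23 in irradiated heads. CG33926 (Srg3), which was lower, and CG3448, which was higher, start 8.34 kb apart on 3L, and opposite directions were also seen for CG7299 and CG6415 on 2L and the antisense RNA CR31144 and scpr-A on 3R. CG33926 had 5.79 and 3.36 FPKM in irradiated and mock mutant heads, against 34.3 and 29.8 FPKM in irradiated and mock wild-type heads.

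Around p53 itself, the members were the 2 genes closest to it. Of 172 tested genes on 3R within 1 Mb of p53, 2 were members, Gr94a and CG17119. Over the whole of 3R, 25 of 2249 tested genes (1.11%) were members. Within 100 kb of p53, the same 2 were members among 16 tested genes, and nothing is read from these counts. Gr94a, a gustatory receptor gene, lies at 3R:23051689-23052903 on the plus strand, inside the span of p53 at 3R:23049657-23054082 on the minus strand. It was listed at 0 in both mutant head libraries, against 3.93 and 1.57 FPKM in irradiated and mock wild-type heads. In embryos it had 0 and 0.0500 FPKM in irradiated and mock mutants, against 4.80 and 1.69 FPKM in irradiated and mock wild type. Gr94a was therefore low in the same libraries as p53, and whether its reads come from p53 transcripts was not tested.

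CG17119 (Ctns), which encodes the lysosomal cystine transporter cystinosin, starts 4.88 kb from p53 and was higher. It had 4.95 and 5.47 FPKM in irradiated and mock mutant heads, against 2.35 and 1.66 FPKM in irradiated and mock wild-type heads. Embryo levels were 6.80 and 6.49 FPKM in irradiated and mock mutants, against 3.18 and 2.50 FPKM in irradiated and mock wild type. The tested genes next to them did not share the shift in both tissues. CG17121, which starts 5.87 kb from p53, differed by 1.07 in irradiated heads and −0.50 in irradiated embryos, and CG17111 by −0.67 and 0.13. On the side of Ctns, sav differed by −0.25 in irradiated heads and −0.18 in irradiated embryos, and Ublcp1 by 0.00 and 0.41. In the irradiated libraries Ctns itself was under 2-fold, at 0.83 in heads and 0.90 in embryos.

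Most members did not differ by 2-fold between irradiated and mock libraries. The share that did was above that of all tested genes in mutant heads and in wild-type heads and embryos. The mock libraries in these comparisons are those that chose the members. A choice by extreme mock values itself favours a difference from the irradiated library. The counts are therefore given as values only, and nothing is read from the higher share. In p53 mutant heads, 1 member was higher after irradiation and 4 lower, against 0.357% and 0.411% of all tested genes. In p53 mutant embryos 0 members passed, against 0.433% higher and 0.314% lower over all genes. In wild-type heads 3 members were higher and 3 lower, against 1.14% and 0.260%. In wild-type embryos 8 members were higher and 3 lower, against 0.833% and 0.346%, and 7 of the 8 were members chosen as higher in the mutant. Counted in either direction, 4.50% of members passed in mutant heads, against 0.768% of all genes, and 0% in mutant embryos, against 0.747%. In wild type, 5.41% of members passed in heads, against 1.40% of all genes, and 9.91% in embryos, against 1.18%. Over the 4 comparisons, the median member moved by between −0.09 and 0.19 depending on direction, strain and tissue.

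**Figure D5:**
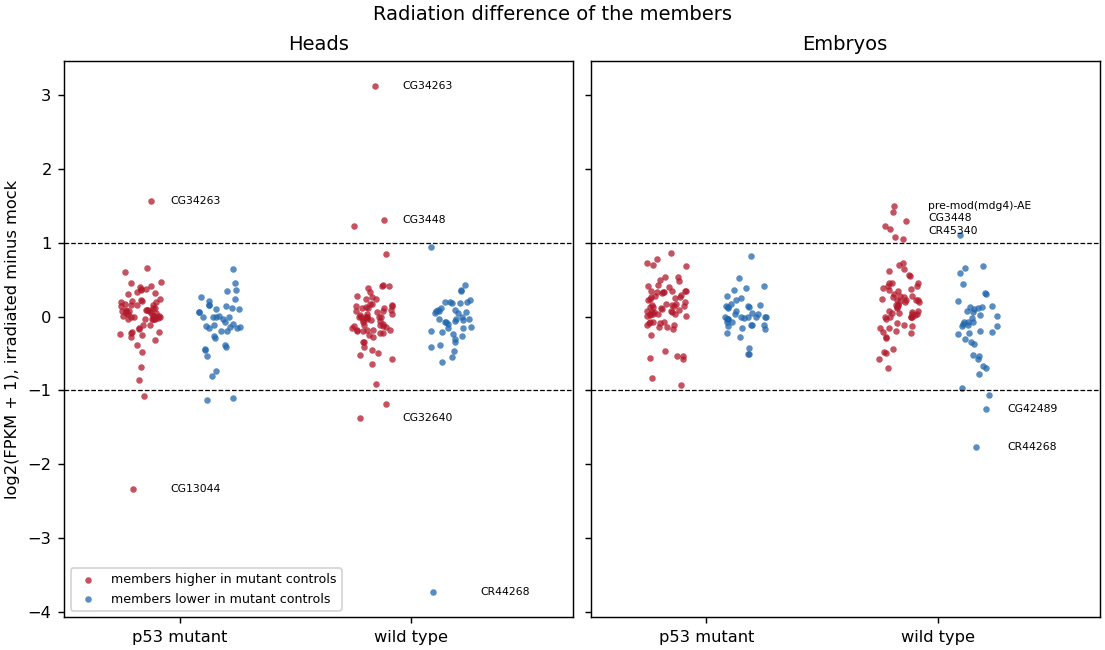
Difference in log2(FPKM + 1), irradiated minus mock, for each member in p53 mutant and wild-type heads (left) and embryos (right), with members higher in mutant controls in red, members lower in blue and dashed lines at 2-fold. Most points lie near 0, no point of the mutant embryos passes a line, and CG34263 at 3.12 and CR44268 at −3.73 in wild-type heads are the extremes.

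CG3448 and CG34263 were the members that were higher by 2-fold or more after irradiation in both wild-type tissues. CG3448 had 12.0 FPKM in irradiated and 4.24 FPKM in mock wild-type heads, a difference of 1.31. In wild-type embryos it had 11.5 FPKM when irradiated and 3.71 FPKM when mock treated, a difference of 1.41. In the mutant the level was high in both treatments, at 18.2 and 12.8 FPKM in irradiated and mock heads and 13.4 and 10.5 FPKM in irradiated and mock embryos. The radiation difference in the mutant was 0.47 in heads and 0.33 in embryos. The strain difference was thus 0.57 in irradiated heads and 0.20 in irradiated embryos, so CG3448 was no longer shifted by 2-fold after radiation.

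CG34263, a gene with a transcript of 258 bp, was higher after irradiation in 3 of the 4 comparisons. It had 8.43 FPKM in irradiated and 2.21 FPKM in mock mutant heads, and 7.67 FPKM in irradiated wild-type heads, where the mock library listed it at 0. Its levels in embryos were 3.94 and 4.20 FPKM in irradiated and mock mutants, against 3.13 and 0.810 FPKM in irradiated and mock wild type. Its strain difference after irradiation was 0.12 in heads and 0.26 in embryos. CG5892 was higher in irradiated wild-type heads, at 2.51 FPKM against 0.498 FPKM in mock ones, while both mutant head libraries had 4.31 FPKM.

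The other members past 2-fold in wild-type embryos were mostly low in the mock library. pre-mod(mdg4)-AE had 1.82 FPKM in irradiated wild-type embryos and was listed at 0 in mock ones, CR45340 had 1.46 FPKM and was listed at 0, and CG14419 had 1.34 FPKM and was listed at 0. Of 9 higher members at 0.1 FPKM or less in mock wild-type embryos and at 5 FPKM or more in irradiated mutant embryos, 8 were over 0.1 FPKM in irradiated wild-type embryos. Their level there was 0% to 19.3% of that in irradiated mutant embryos, with a median of 3.83%, and the low mock level is fixed by how these members were picked. Gr94a was the lower member that was higher after irradiation in wild-type embryos, with a difference of 1.11, beside 1.04 for p53.

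Members lower after irradiation included several near the limit of detection. CG13044 was listed at 0 in irradiated mutant heads and had 4.07 FPKM in mock ones, while in embryos it had 46.3 and 45.0 FPKM in irradiated and mock mutants. CR44268 was listed at 0 in irradiated wild-type heads and had 12.2 FPKM in mock ones. In wild-type embryos CR44268 had 1.50 FPKM when irradiated and 7.50 FPKM when mock treated. This gene, with a transcript of 205 bp, had the same level in both strains after irradiation, with differences of 0.00 in heads and 0.02 in embryos. CG32581 and CG32641 were lower in irradiated than in mock mutant heads, with differences of −1.13 and −1.11 at mock levels of 1.30 and 1.15 FPKM.

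The 30 members that were not held in both irradiated tissues included CG13044, CG15199, CG42489, CR44268 and CR44472, whose smaller irradiated difference in the direction of the choice was the lowest. CR44472 had 1.77 and 4.87 FPKM in irradiated and mock mutant heads, against 3.14 and 1.30 FPKM in irradiated and mock wild-type heads, and its strain difference after irradiation was −0.58. CG42489 was lower in irradiated mutant heads, at 11.5 FPKM against 27.7 FPKM in irradiated wild-type heads. In irradiated embryos it had 2.00 FPKM in the mutant and 0.800 FPKM in wild type, a difference of 0.74. CG15199 differed by −1.13 in irradiated heads and 0.28 in irradiated embryos.

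Peaks of p53-bound chromatin lay near few members and near few of all tested genes. The authors' deposited lists hold 392 peaks in heads and 135 in embryos, each called as wild-type over mutant chromatin. A summit lay within 5 kb of the start of 4 members (3.60%), against 5.65% of all tested genes on the annotation. By list, the shares were 3.60% against 5.44% in heads and 1.80% against 1.37% in embryos. Nothing is read from these shares. In the head list, the nearest peak to Gr94a was 1.61 kb away with the authors' fold of 9.80, and the nearest to Ctns was 4.81 kb away with a fold of 2.30. Gr94a lies inside the span of p53 and Ctns next to it. The fold compares wild type with the p53 mutant, and the part of the mutation itself in the signal at this site was not tested. The antisense RNA CR45600 had a head peak 0.259 kb from its start with a fold of 2.28, and the non-coding RNA CR45670 had one 3.77 kb away with a fold of 2.51. In the embryo list, a summit lay within 5 kb of 2 members, Gr94a at 1.62 kb with a fold of 3.44 and CR45600 at 3.17 kb with a fold of 1.71. CR45670 had 3.50 and 2.38 FPKM in irradiated and mock mutant heads and was listed at 0 in both wild-type head libraries.

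At the threshold, the members just inside were RpL23A, with mock differences of 1.37 in heads and 1.00 in embryos, CG15199 with −1.71 and −1.02, and CG4594 with 1.02 and 1.56. Just outside were CG42554, with a mock difference of 1.13 in heads and a smaller absolute difference of 0.996 in embryos, CG13901 with −1.99 and −0.99, and ZnT49B with 0.99 and 1.45. Of the 111 members, 69 reached 5 FPKM in at least 1 library of each tissue, and 31 were listed at 0 in at least 1 library. The mock difference was larger in heads for 70 members and in embryos for 41. For 107 members with a transcript of 300 bp or more, the library with the most fragments held a median of 267 in heads and 330 in embryos. Fewer than 30 fragments in every library of a tissue stood behind 10 of them in heads and 6 in embryos.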

How the data were processed

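The study holds 8 RNA libraries and 4 libraries of p53-bound chromatin. Every group has 1 library, so no test was made. The submitters' processing notes name TopHat2 and Cuffdiff for RNA, Bowtie2 and MACS2 for chromatin, and cutadapt, Picard and SAMtools for both, on dm6. Not given in the sources used here are tool versions, the gene annotation and any pooling. For each tissue the authors deposited 1 table with FPKM per gene and group, normalized within that table, and log2 fold changes made after adding 1 FPKM, per the file headers. These deposited log2 values differed from the differences computed here by at most 0.0167. The deposited peak lists give a fold (ratio) of wild-type over mutant chromatin, −log10 p-values and q-values and a summit.

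Each difference is on the log2(FPKM + 1) scale, and the added 1 FPKM (pseudocount) understates changes of low genes. It was taken over genes at 1 FPKM or more in each tissue. The 2 rows that repeat a symbol were left out. Coordinates, lengths and overlaps came from the Ensembl 115 annotation, and current symbols from RefSeq. All 111 members matched, 78 by symbol and 33 by synonym. Promoter sequences were not analysed here. Fragments were estimated from the steps of FPKM times transcript length reduced by 150 bp, for transcripts of 300 bp or more. Over lengths of 100 to 250 bp the depths ranged from 9.98 to 15.3 M in heads, where the steps were weak, and from 18.2 to 25.0 M in embryos. The scripts, in Python 3.11.15 with pandas 2.3.3 and numpy 2.4.6, were tested on simulated data.

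The members, the gene lists and the rules were chosen with earlier results of these data known. Named by rule were the 10 most shifted members per direction at 5 FPKM or more in both tissues, members at 0.1 FPKM or less in all libraries of 1 strain, and 6 groups of neighbours within 20 kb. The rule also took up to 3 members per direction and radiation comparison, members within 5 kb of a summit, 3 genes on each side of the threshold, the 5 least held after irradiation and members of listed families. The genes described by role, the mirror pairs and the relatives were chosen after their values were seen. Alternatives were another pseudocount, floor, threshold or distance, centring, and removal of small RNA genes.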

Additional observations from a re-analysis of the deposited data

Results flagged for a closer look

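Members are given here where 2 effects under the same contrast went in opposite directions by 0.5 or more each on the log2 scale. With 1 library per group none of these differences was tested, and each rests on single libraries. For CG32640, the difference between irradiated and mock libraries was 0.61 in p53 mutant heads and −1.38 in wild-type heads, while in wild-type embryos it was 0.55. For CR44472 it was −1.08 in mutant heads and 0.85 in wild-type heads, and −0.93 in mutant embryos and 1.08 in wild-type embryos. CR44472 thus differed in opposite directions between the strains in both tissues, at no more than 4.87 FPKM. For CG15199 the radiation difference was 0.52 in mutant embryos and −0.78 in wild-type embryos, at 0.990 to 3.03 FPKM. For CG42489 it was 0.82 in mutant embryos and −1.26 in wild-type embryos, and its strain difference among irradiated libraries was −1.20 in heads and 0.74 in embryos. For CR45625 the radiation difference in the mutant was −0.69 in heads and 0.54 in embryos. For p24-2 in wild type it was −0.57 in heads and 0.65 in embryos, where the gene was at most 0.570 FPKM.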

How the results depend on the processing

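Of 52 alternatives computed, 36 gave a count within 1.5 times that reported, but some of these could not move. No member was a small RNA gene, so leaving those out repeated every count. Dropping the floor had to give 111 members again, since a difference of 1 already requires 1 FPKM. Member counts after other removals only reflect the genes removed, so the 36 do not measure stability. With a pseudocount of 0.5 FPKM, the members past 2-fold after irradiation were 10 in wild-type heads in place of 6, and 3 in mutant embryos in place of 0. With a pseudocount of 5 FPKM, the rule found 39 members, 42 of the original 111 were held in both irradiated tissues in place of 81, and radiation counts were 0 in mutant heads and, in wild type, 2 in heads and 0 in embryos. A floor of 5 FPKM in each tissue left 69 members, with 2 past 2-fold in mutant heads and 5 in wild-type embryos. A threshold of 1.5 on the log2 scale left 39 members. A distance of 10 kb gave 7 members near a peak in place of 4. Chosen after seeing the data, leaving out genes listed at 0 in any library gave 1 in mutant heads and, in wild type, 3 in heads and 3 in embryos, and leaving out transcripts under 300 bp gave 7 in wild-type embryos. The radiation counts in particular depend on genes near 0, and the cause of the other moves was not tested. Centring on the median of all genes gave 112 members, and leaving out small RNA genes 111. No paired analysis was possible because the labels give no replicate numbers and these counts come from no test, and with 1 library per group none was left out. Depth limits low members: 10 of 107 in heads and 6 in embryos had fewer than 30 fragments in every library of that tissue.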

Other observations

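Several members close to absent in 1 strain had a trace in only 1 of that strain's libraries of a tissue. The counts below pick members by a low value in 1 library, so that low value is fixed by the choice, and by 5 FPKM or more in the other strain's library of the other treatment. In heads, 10 higher members were at 0.1 FPKM or less in irradiated wild type, and 6 of them were over 0.1 FPKM in mock wild type, at a median over the 10 of 1.04% of the mock mutant level. The other way round, 5 were at 0.1 FPKM or less in mock wild-type heads, and 1 of them, CG34263, was over 0.1 FPKM in irradiated wild-type heads, at 91.0% of the irradiated mutant level. In embryos, 1 member, CR45625, was at 0.1 FPKM or less in irradiated wild type, and it was listed at 0 in mock wild type too, beside 8 of 9 in the reverse count. The lower member CG32581 had 0.0540 and 1.30 FPKM in irradiated and mock mutant heads, and its mock level was 2.76% of that in mock wild-type heads. The part of traces of RNA from the other strain in these values was not tested.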
